A study of Homo sapiens with 4 samples.

Results

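The 32 genes described here encode the enzymes that make cholesterol and fatty acids and the proteins that switch those enzymes on and off. They were taken from a fixed list of symbols, 8 for the mevalonate steps, 11 for the squalene and sterol steps, 5 for the SREBP factors and their regulators, 1 for sterol transfer and 7 for the fatty acid steps. Each gene was read from the brightest of its probes. All 32 were on the array, among 34809 named genes, and all 32 were among the 24902 genes that passed the filter on dim probes. RNA came from Hep3B, a human hepatocellular carcinoma (HCC) cell line. The cells had been transfected with a plasmid that expresses a short hairpin RNA and were then selected with puromycin, 1 μg/ml. The controls carried the hairpin shR-MOCK, and the knockdown cells carried shR-467, shR-554 or shR-749, which target the UNC50 mRNA at 467, 554 and 749 bp. UNC50 is a membrane protein of the Golgi apparatus. There was 1 Agilent 1-colour array for each of the 4 hairpins, and the labels name no repeat cultures. The 3 hairpins against UNC50 were taken as replicates of knockdown, so the SD given here is the spread between 3 reagents against 1 gene, and the spread between control cultures is not known.

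Cells make cholesterol from acetyl-CoA through mevalonate, the prenyl diphosphates, squalene and lanosterol, and they make fatty acids from malonyl-CoA and then elongate and desaturate them. Most genes of both routes are transcribed under the sterol regulatory element-binding proteins (SREBPs), which are made as membrane-bound precursors in the endoplasmic reticulum. When sterol is scarce, the escort protein SCAP carries the precursor to the Golgi, where the proteases encoded by MBTPS1 and MBTPS2 cut it and release the part that enters the nucleus. When sterol is plentiful, INSIG1 and INSIG2 hold SCAP in the endoplasmic reticulum. The liver is a main site of both routes.

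Signals are the scanner's background-subtracted intensities, and each array was scaled by its own 75th percentile, which lay between 978 and 1390. Raw signals of different arrays are therefore not directly comparable, and every difference and fold below is on the scaled values. All 32 genes were well above background on all 4 arrays with signals from 79.0 to 87489. The median SD between the 10 spots of a repeated probe was 0.056 to 0.071 on the log2 scale, an error that covers printing and scanning only. Of the 32 genes 3 were printed in 10 spots, 25 in 2 and 4 in 1. The largest spot SD among them was 0.26, for NSDHL. The 8 hepatocyte and hepatoma markers on the marker list were well above background on every array, and their summed scaled signal was 132%, 109% and 125% of mock (shR-467, shR-554, shR-749), most of it from ALB and APOA2. Single markers moved more. FGB, a fibrinogen chain, was 1.57-fold, 3.83-fold and 6.36-fold above mock, TTR 1.56-fold, 1.57-fold and 2.22-fold and APOA1 2.56-fold, 1.52-fold and 2.09-fold, all 3 past 1.5-fold with every hairpin, and AFP, singled out after its values were seen, stood at 1.15-fold, 2.03-fold and 2.88-fold. FGB, AFP and TTR thus rose from shR-467 to shR-749, opposite to the order of the lipid genes described below. SERPINA1 ran in the order of the lipid genes, at 1.57-fold, 1.02-fold and 0.872-fold. ALB, APOA1, APOA2 and HNF4A were highest with shR-467 and ran in neither order. Of the 4 leukocyte markers 3 were well above background on all arrays, and their summed scaled signal was 161%, 112% and 101% of mock. The sums of the 3 endothelial markers, dim but well above background, were 156%, 110% and 110.5%. With shR-554 PECAM1 and VWF were below mock, at 0.74-fold and 0.60-fold, and CDH5 above it, at 1.97-fold. Of the 4 fibroblast and stellate markers COL1A1 and PDGFRB were well above background on no array. The sums were 167%, 159% and 125%, most of each from LUM. DCN, well above background on 2 arrays, was at 1.27-fold, 0.37-fold and 0.82-fold. Each of these marker sums was highest with shR-467, as were most lipid genes, and their part in the results was not tested. Array signal cannot tell fewer cells carrying a transcript from less transcript per cell.

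UNC50 was far lower with every hairpin. Its probe (hg19 chr2:99227237-99227296) gave a signal of 5010 with shR-MOCK, 1050 and 853 with shR-467 and shR-554, and 947 with shR-749. The scaled level was 24.0% of mock with shR-467, 18.7% with shR-749 and 13.7% with shR-554. The mean log2 difference was -2.45 ± 0.40 (SD, n = 3). In limma the unadjusted p was 0.000140 and the adjusted p 0.623, the smallest adjusted p among the 24902 genes tested and a value shared with other genes.

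The lipid synthesis genes were higher than mock with shR-467 and less so with shR-554, and they lay at or slightly below the mock level with shR-749. Their median log2 difference from mock was 0.58 and 0.36 with shR-467 and shR-554, and -0.09 with shR-749. The medians of all genes kept were 0.03, -0.04 and -0.05. With shR-467, 30 of the 32 genes lay above mock, against 54.2% of all genes. With shR-554 the count was 29 of 32, against 45.4%. With shR-749 it was 12 of 32, close to the 43% of all genes. The order of the hairpins was not that of the remaining UNC50, which was lowest with shR-554 and highest with shR-467. UNC50 was read from 1 spot on each array. Under every hairpin alike 11 of 32 lay above mock, against 17.6% of all genes, and 7 of those 11 belonged to the squalene and sterol steps. Of these, EBP and TM7SF2 were above mock with shR-749 by only 0.003 and 0.04 (log2), less than the median SD between spots. Above mock with both shR-467 and shR-554 were 28 of 32, against 27.3% of all genes.

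**Figure D1:**
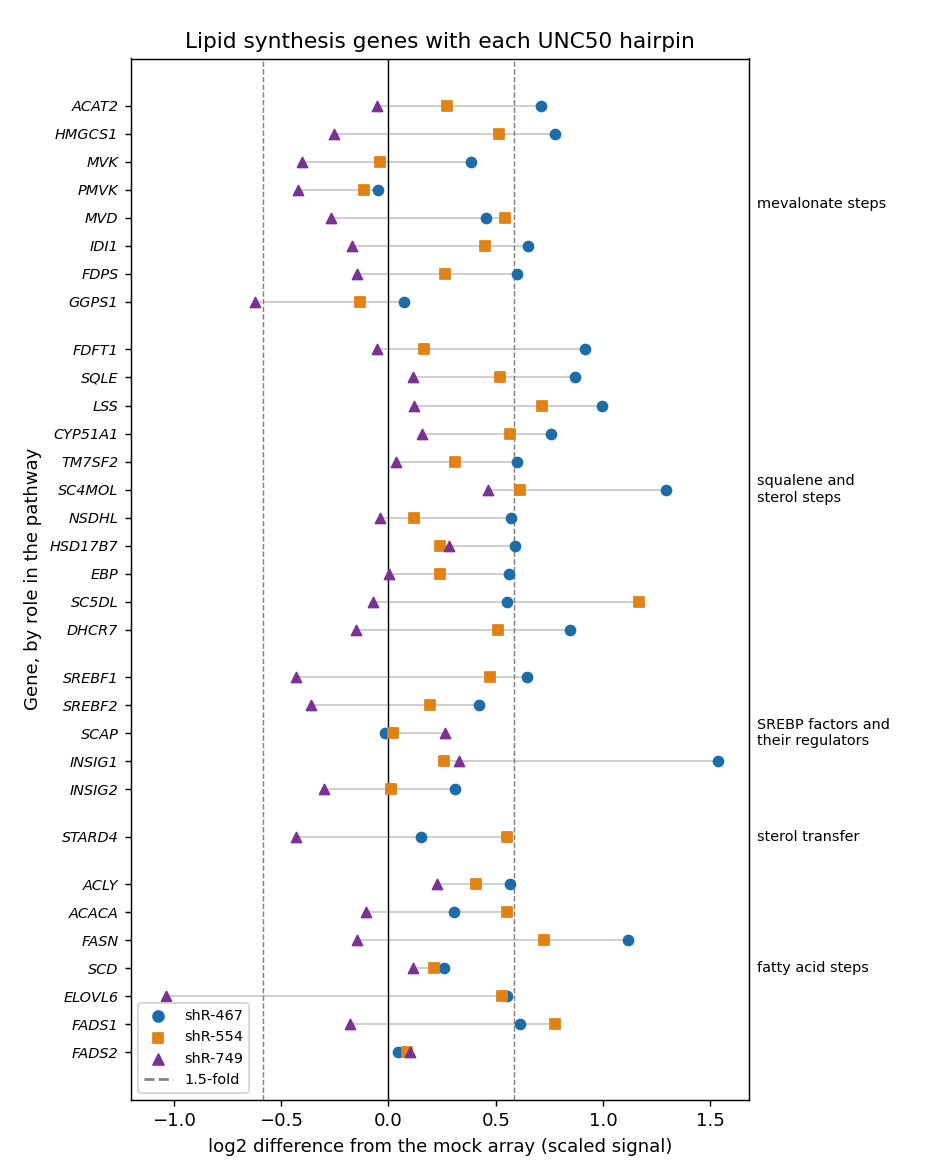
Log2 difference of scaled signal from the mock array (horizontal) for each of the 32 genes (vertical, by role), 1 point for each hairpin, with a grey line joining a gene's lowest and highest value and dashed lines at 1.5-fold. The shR-467 points reach 1.53 for INSIG1 and 1.29 for SC4MOL, and shR-749 is the lowest of the 3 points for most genes.

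The study's methods took an average change of 1.5-fold as the threshold. By it 3 of the 32 genes were higher on average, SC4MOL, INSIG1 and LSS, where 2.28% of all genes were. None of the 32 was lower on average, against 7.47% of all genes. None was 1.5-fold higher or 1.5-fold lower with every hairpin, where 0.534% and 1.18% of all genes were. These counts rested on single hairpins: without shR-467 0 of 32 were higher on average, against 3.14% of all genes, and without shR-749 it was 10, against 2.7%. Hairpin by hairpin the counts differed widely. With shR-467, 16 of 32 genes were 1.5-fold higher, against 7.18% of all genes, and 0 were 1.5-fold lower, against 6.73%. With shR-554, 5 of 32 were higher (all genes, 4.39%) and 0 lower (15.5%). With shR-749, 0 were higher (5.37%) and 2 were lower (10.1%), GGPS1 and ELOVL6. In either direction the counts were 16, 5 and 2 of 32, against 13.9%, 19.9% and 15.5% of all genes. The shares of all genes include dimmer ones, since 21231 of the 24902 were well above background on all 4 arrays. For those 21231 the lower quartile with shR-554 was -0.21 (log2), against -0.34 for all genes kept. LSS, SC4MOL, FASN and FADS1 were 1.5-fold higher under both of the first 2 hairpins, as were 0.976% of all genes. The fifth gene with shR-554 was SC5DL. Several genes sat near the threshold with shR-467: HSD17B7, FDPS and TM7SF2 were just past it with log2 differences of 0.59, 0.60 and 0.60, and NSDHL, ACLY and EBP just short of it with 0.57, 0.56 and 0.56.

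Comparing hairpin with hairpin leaves the mock array out. The level with shR-467 was above that with shR-749 for 30 of the 32 genes, against 58.2% of all genes, and the exceptions were SCAP and FADS2. For 22 of them it was 1.5-fold above or more, against 14%, and for 0 it was 1.5-fold below, against 8.12%. The median difference between shR-467 and shR-749 was 0.74 for the 32 genes and 0.08 for all genes. The level with shR-554 was above that with shR-749 for 28 of 32 (all genes, 50.4%), 1.5-fold above for 12 (7.22%) and 1.5-fold below for 0 (13.3%). Between shR-467 and shR-554 the contrast was weaker: shR-467 was above for 25 of 32 (56.8%), 1.5-fold above for 3 (18.9%) and 1.5-fold below for 1 (7.87%), SC5DL. The descending order shR-467, shR-554, shR-749 was found in 23 of 32 genes and in 19.5% of all genes. Each comparison here sets 1 array against 1 array and has no replicate check.

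**Figure D2:**
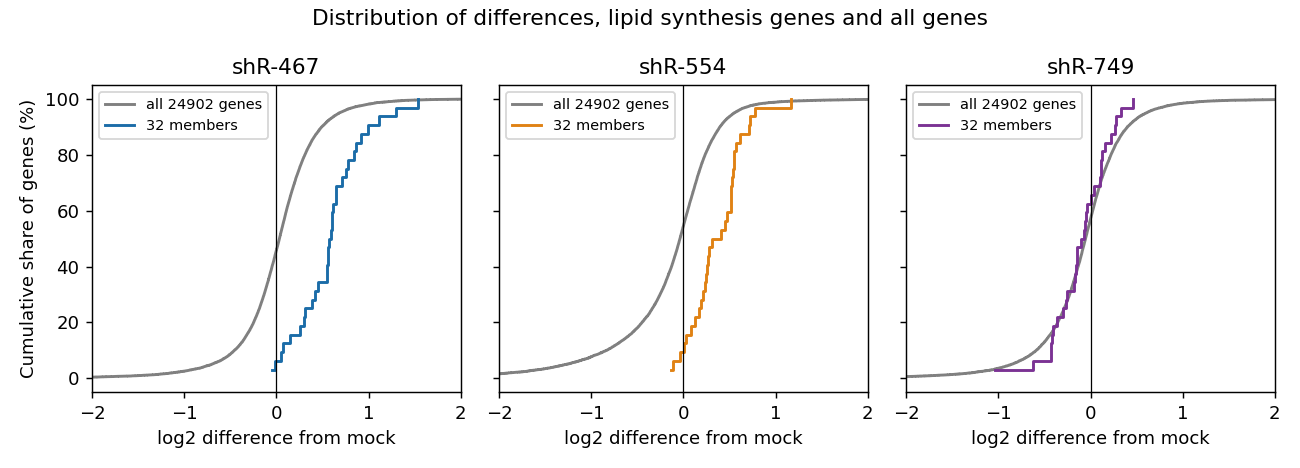
Cumulative share of genes (vertical, %) at or below each log2 difference from mock (horizontal), for all 24902 genes in grey and the 32 lipid synthesis genes in colour, 1 panel for each hairpin. The coloured curve lies right of the grey one with shR-467 (medians 0.58 and 0.03) and shR-554 (0.36 and -0.04) and runs along it with shR-749 (-0.09 and -0.05).

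The squalene and sterol steps had the highest median of the role groups with shR-467 and with shR-749. Their 11 genes had median log2 differences of 0.76 and 0.51 with shR-467 and shR-554, and 0.04 with shR-749. Both shR-467 and shR-554 put all 11 above mock, with 8 and 3 of them past 1.5-fold. With shR-749, 7 of 11 were above mock and 0 reached 1.5-fold. SC4MOL, the methylsterol monooxygenase that removes methyl groups from lanosterol derivatives (now MSMO1), gave signals of 476 with shR-MOCK, 1019 and 904 with shR-467 and shR-554, and 663 with shR-749. Every hairpin was above mock, by 1.29, 0.62 and 0.47 on the log2 scale. Its mean difference of 0.79 ± 0.44 (SD, n = 3) was the largest of the 32, with a limma p of 0.0602 and an adjusted p of 1.00. LSS, lanosterol synthase, which closes the sterol rings, gave signals of 4529, 7895, 9235 and 4965 in the same order. Its log2 differences were 1.00, 0.72 and 0.12, so the first pair of hairpins stood well above mock and shR-749 only slightly. A second, dimmer LSS probe was at 1.07, 1.43 and 0.91, so that the low value with shR-749 belongs to the brighter probe alone.

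Most other sterol enzymes ran in the same order with smaller differences. SQLE, squalene epoxidase, a rate-controlling enzyme of the route, gave signals of 5430, 8658, 9650 and 5926 (mock, shR-467, shR-554, shR-749). It lay above mock with each hairpin, 1.83-fold, 1.43-fold and 1.08-fold. CYP51A1, the lanosterol demethylase, was likewise above mock 1.69-fold, 1.48-fold and 1.11-fold. FDFT1, squalene synthase, which commits farnesyl diphosphate to sterols, was 1.89-fold above mock with shR-467 but 1.12-fold with shR-554 and 0.965-fold with shR-749. DHCR7, the reductase that yields cholesterol, was at 1.80-fold, 1.43-fold and 0.899-fold. SC5DL, a sterol desaturase (now SC5D), left the common order. Its signals of 82.4, 105, 230 and 79.0 put shR-554 highest, 2.25-fold above mock, and shR-749 level with mock. It was also the dimmest of the 32, its lowest signal being 3.16 times the array's lowest signal still called well above background. TM7SF2, NSDHL and EBP, which reduce, demethylate or isomerise sterol intermediates, had log2 differences of 0.56 to 0.60 with shR-467, 0.12 to 0.31 with shR-554 and -0.04 to 0.04 with shR-749. HSD17B7, a sterol ketone reductase, was at 0.59, 0.24 and 0.28. Its 3 probes were all above mock with all 3 hairpins. Of these, 2 are also annotated to a transcript of the copy HSD17B7P2, so its signal may be shared with that copy.

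The mevalonate steps had lower medians than the sterol steps with each hairpin. The medians of the 8 genes were 0.53 and 0.27 with shR-467 and shR-554, and -0.26 with shR-749. With shR-467 4 of the 8 passed 1.5-fold and with shR-554 0, and with shR-749 none of the 8 was above mock. HMGCS1, which makes HMG-CoA and is a classical SREBP target, gave signals of 10600 with shR-MOCK, 15849 and 18800 with shR-467 and shR-554, and 8959 with shR-749. It was 1.71-fold and 1.43-fold above mock with shR-467 and shR-554 and at 0.838-fold with shR-749, so the hairpins lay on both sides of mock. ACAT2, the cytosolic thiolase that starts the route, IDI1, which isomerises isopentenyl diphosphate, and FDPS, farnesyl diphosphate synthase, were the other 3 genes past 1.5-fold with shR-467. Their values there were 1.64-fold, 1.57-fold and 1.51-fold, and with shR-749 they were between 0.888-fold and 0.963-fold. MVD, the mevalonate diphosphate decarboxylase, read from a probe that the array annotation leaves unmapped, had log2 differences of 0.46, 0.54 and -0.27 (shR-467, shR-554, shR-749).

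The kinases of the route and the branch enzyme had the lowest mean differences of the 8, and with shR-749 they were the furthest below mock. MVK, mevalonate kinase, was at 0.39, -0.04 and -0.40 (log2; shR-467, shR-554, shR-749). PMVK, phosphomevalonate kinase, was the only one of the 32 below mock with every hairpin, at -0.05, -0.11 and -0.42, where 20.5% of all genes were below with every hairpin. GGPS1, which makes geranylgeranyl diphosphate for protein prenylation rather than for sterols, gave signals of 175, 161, 199 and 115 (mock, shR-467, shR-554, shR-749). It lay near mock with shR-467 and shR-554 and at 64.9% of mock with shR-749.

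Promoter sequence was read for 28 of the 32 genes from RefSeq windows on GRCh38.p14 that run from 250 bases before each transcription start to 50 after it; ACAT2, FDFT1, SQLE and FASN had no entry. On both strands 3 motifs were searched: a sterol regulatory element written TCACNCCAC, the inverted CCAAT box ATTGG bound by NF-Y, and the GC box GGGCGG bound by SP1, the latter pair being the usual partners of SREBPs. None of the 3 letter strings contains another. The CCAAT box was in the windows of 21 of 28 genes (75%), against 39.7% of the 27305 genes in the table. The GC box was in 27 of 28 (96.4%), against 48.3%. The strict sterol element was in 1 of 28, SREBF2, against 1.39% of all genes. A gene counted if any of its windows held the motif. The 27305 genes were not limited to those kept on the array, so the shares do not compare like with like in expression. A match is a run of letters and not a measured site. The 250 bases before the start are shown for the genes highest on average, SC4MOL (chr4:165327419-165327668, plus strand), INSIG1 (chr7:155297628-155297877, plus strand) and LSS (chr21:46228775-46229024, minus strand), and for SREBF2 (chr22:41832855-41833104, plus strand), the carrier of the sterol element. Each reads 5′ to 3′ toward the start, with CCAAT boxes (ATTGG or CCAAT) and the sterol element in capitals.
SC4MOL: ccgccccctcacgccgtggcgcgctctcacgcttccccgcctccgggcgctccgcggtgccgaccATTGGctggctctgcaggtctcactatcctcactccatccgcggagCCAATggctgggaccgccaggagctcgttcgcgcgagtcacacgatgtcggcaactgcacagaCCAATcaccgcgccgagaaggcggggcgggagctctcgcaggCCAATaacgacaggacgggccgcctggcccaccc
INSIG1: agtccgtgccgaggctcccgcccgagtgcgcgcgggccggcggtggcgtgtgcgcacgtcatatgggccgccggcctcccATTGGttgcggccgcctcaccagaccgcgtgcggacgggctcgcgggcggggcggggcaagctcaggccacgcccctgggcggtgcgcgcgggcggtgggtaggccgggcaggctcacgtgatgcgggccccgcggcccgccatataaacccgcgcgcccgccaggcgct
LSS: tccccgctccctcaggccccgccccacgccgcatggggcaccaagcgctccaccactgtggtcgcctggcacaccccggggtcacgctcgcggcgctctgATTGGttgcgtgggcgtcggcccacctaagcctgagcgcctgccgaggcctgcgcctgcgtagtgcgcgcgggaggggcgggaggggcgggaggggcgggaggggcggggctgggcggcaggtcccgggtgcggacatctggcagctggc
SREBF2: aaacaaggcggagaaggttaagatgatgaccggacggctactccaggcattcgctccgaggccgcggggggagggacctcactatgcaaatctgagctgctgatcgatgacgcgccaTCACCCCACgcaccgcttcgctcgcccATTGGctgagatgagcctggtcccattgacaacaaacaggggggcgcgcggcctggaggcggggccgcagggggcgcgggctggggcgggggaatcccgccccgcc
SC4MOL held 4 CCAAT boxes and the other 3 genes 1 each. In SREBF2 the sterol element TCACCCCAC began 133 bases before the start and its CCAAT box 106 bases before it. The boxes of SC4MOL lay 185, 139, 76 and 34 bases before the start.

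The 5 SREBP factors and regulators had medians of 0.42, 0.19 and -0.30 (shR-467, shR-554, shR-749), and 2 of them, INSIG1 and SREBF1, passed 1.5-fold, both with shR-467 only. INSIG1 had the largest single difference of the 32 genes. INSIG1 is itself an SREBP target and feeds back on the pathway. Its signals were 509 with shR-MOCK, 1288 and 757 with shR-467 and shR-554, and 645 with shR-749, so shR-467 stood well apart from the other arrays. The log2 differences were 1.53, 0.26 and 0.33, that is 2.90-fold, 1.20-fold and 1.26-fold. The mean of 0.71 ± 0.72 (SD, n = 3) thus rested mainly on 1 hairpin. INSIG2, the related retention protein, was at 0.31, 0.01 and -0.30.

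On their brightest probes the SREBP genes themselves were above mock with shR-467 and shR-554 and below it with shR-749. SREBF1, which encodes the form that mainly drives fatty acid synthesis, gave signals of 11745, 16050, 20250 and 8790 (mock, shR-467, shR-554, shR-749). It was 1.56-fold and 1.39-fold above mock with shR-467 and shR-554, and with shR-749 it was at 74.2% of mock. A second, dimmer SREBF1 probe, 1 spot with a mock signal of 314, gave log2 differences of 0.31, 0.20 and 0.08, a smaller spread in the same order. It was not below mock with shR-749, so that fall was seen on the brighter probe alone. SREBF2, which mainly drives cholesterol synthesis, gave signals of 2680, 3135, 3807 and 2104. Its differences of 0.42, 0.19 and -0.36 ran in the same order as most of the 32 genes. SCAP, the escort protein, was at -0.02, 0.02 and 0.26, and shR-749 was its highest array.

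MBTPS1, the Golgi protease that makes the first cut in the SREBP precursor, belongs to the list of SREBP cleavage genes and was singled out after its values were seen. It is represented by 2 probes (hg19 chr16:84087527-84087586 and chr16:84087686-84087745). The first gave signals of 1894 with shR-MOCK, 1733 and 2558 with shR-467 and shR-554, and 715 with shR-749, and the other gave 2660, 2760, 3350 and 1050. Both were near mock with shR-467 and shR-554, and with shR-749 they stood at 37.4% and 39.1% of mock. Only 438 genes, 1.76% of those kept, had a lower difference with shR-749 than the brighter of these probes. MBTPS2, which makes the cut that follows, was at -0.05, 0.12 and -0.28 on the log2 scale. The MBTPS1 level thus moved with the hairpin in which the lipid synthesis genes were not raised, and its part in their values was not tested.

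**Figure D3:**
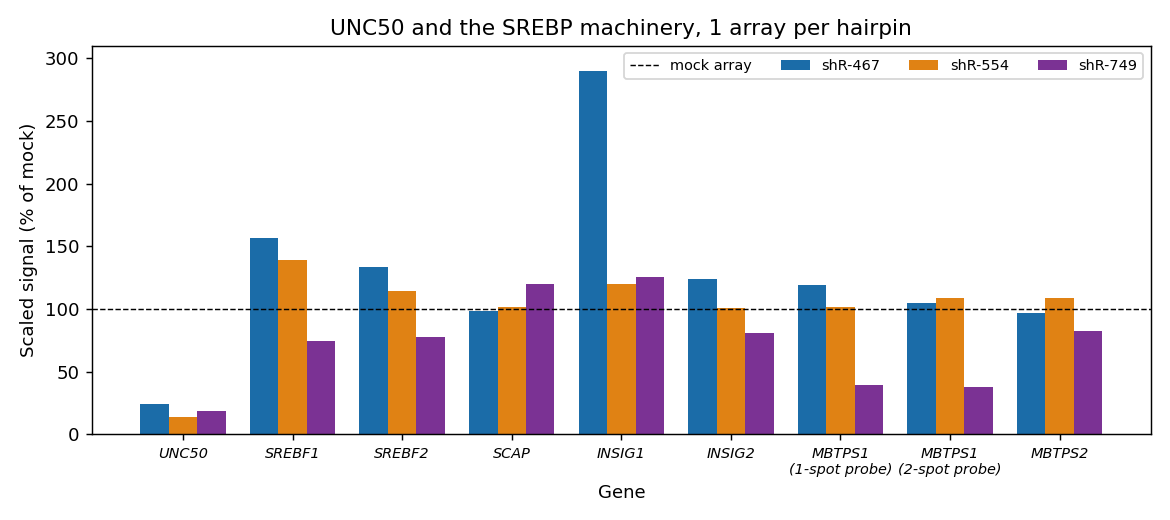
Scaled signal as a percentage of the mock array (vertical, bars from 0, dashed line at 100%) for UNC50, the SREBP factors, their regulators and the SREBP proteases (horizontal), 1 bar for each hairpin and 1 array behind each bar, so no error bar can be drawn. UNC50 is at 13.7% to 24.0% with all 3 hairpins, INSIG1 stands out with shR-467, and both MBTPS1 probes are low with shR-749 at 37.4% and 39.1%.

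The 7 fatty acid genes had medians of 0.55 and 0.53 with shR-467 and shR-554, and -0.10 with shR-749. Of the 7, FASN and FADS1 passed 1.5-fold with shR-467 and with shR-554, and ELOVL6 was 1.5-fold lower with shR-749. FASN, fatty acid synthase, which builds palmitate, gave signals of 20547 with shR-MOCK, 38898 and 42125 with shR-467 and shR-554, and 18750 with shR-749. It was 2.17-fold and 1.65-fold above mock with shR-467 and shR-554 and at 0.904-fold with shR-749. FADS1, a desaturase of polyunsaturated fatty acids, gave 9758, 13045, 20750 and 8689, and shR-554 was its highest array at 1.71-fold. ELOVL6, which elongates palmitate, spread the most over the hairpins. Its probe, 1 spot on each array, gave 1500, 1920, 2690 and 738, with differences of 0.55, 0.53 and -1.04 and a mean of 0.02 ± 0.91 (SD, n = 3). A second ELOVL6 probe was less low with shR-749, at -0.24, and similar with the other hairpins, at 0.55 and 0.64.

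ACLY, ATP citrate lyase, which supplies cytosolic acetyl-CoA to both routes, differed little between hairpins. Its signals were 3650, 4715, 6009 and 4305, above mock with every hairpin by 0.56, 0.41 and 0.23, with a mean of 0.40 ± 0.17 (SD, n = 3) and a limma p of 0.0975. ACACA, acetyl-CoA carboxylase, was at 0.30, 0.55 and -0.10. SCD, stearoyl-CoA desaturase, was at 0.26, 0.21 and 0.11, read from a probe that the array annotation places on chr17 (hg19 20692264 to 20692323) although the gene lies on another chromosome in RefSeq. FADS2, a desaturase encoded next to FADS1, stayed within 0.10 of mock with every hairpin, at 0.05, 0.09 and 0.10.

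STARD4, a carrier that moves cholesterol between membranes, gave signals of 615, 596, 1120 and 460. Only shR-554 was clearly above mock, at 0.55, while shR-467 was at 0.15 and shR-749 at -0.43.

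Neighbouring pathways were read from 6 further lists. The 15 kept genes of other lipid synthesis steps under SREBP had medians of 0.39, 0.38 and -0.09 (shR-467, shR-554, shR-749). Of these 15, 5, 2 and 1 were 1.5-fold higher and 0, 0 and 1 lower. The shares of all genes were 7.18%, 4.39% and 5.37% higher and 6.73%, 15.5% and 10.1% lower. They hold for each of the lists that follow too. In such short lists 1 gene is already 11.1% of 9 or 16.7% of 6, so a count of 1 or 2 says little about a list. The 9 genes of SREBP cleavage and turnover had medians of 0.07, 0.08 and -0.09, with 1, 1 and 0 higher and 0, 0 and 1 lower, the last being MBTPS1. The 9 prenyl and dolichol genes had medians of 0.00, 0.17 and -0.09, and none passed 1.5-fold in any direction with any hairpin. The 9 genes of cholesterol efflux and LXR signalling had medians of 0.43, -0.02 and 0.04, with 1, 1 and 0 higher. The 6 triglyceride assembly genes had medians of 0.46, 0.10 and 0.11, with 2, 1 and 1 higher (33.3%, 16.7% and 16.7%) and 0, 0 and 1 lower. The lower one was MOGAT2, read from 1 spot and well above background on 2 of 4 arrays. Its signal of 22.5 with shR-749 was 0.9 of that array's lowest signal called well above background, so the fall is not reliable.

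The list of sterol esterification and traffic did not show the order of the synthesis genes. Its 8 genes had medians of 0.29, 0.17 and 0.27. Of them 2, 2 and 1 were 1.5-fold higher (25%, 25% and 12.5%), against 7.18%, 4.39% and 5.37% of all genes. SOAT1, the acyltransferase that stores cholesterol as esters, gave signals of 646 with shR-MOCK, 1520 and 2250 with shR-467 and shR-554, and 1470 with shR-749. All 3 hairpins lay above mock, by 1.43, 1.49 and 1.17, and the mean of 1.37 ± 0.17 (SD, n = 3) had a limma p of 6.31e-04 and an adjusted p of 0.759. AGPAT1, an acyltransferase on the way to triglycerides and phospholipids, gave 3369, 5050, 7851 and 5930. Its differences of 0.78, 0.91 and 0.80, mean 0.83 ± 0.07 (SD, n = 3), were the other case on these lists of a 1.5-fold change the same way with every hairpin, with a limma p of 0.00268 and an adjusted p of 1.00.

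**Figure D4:**
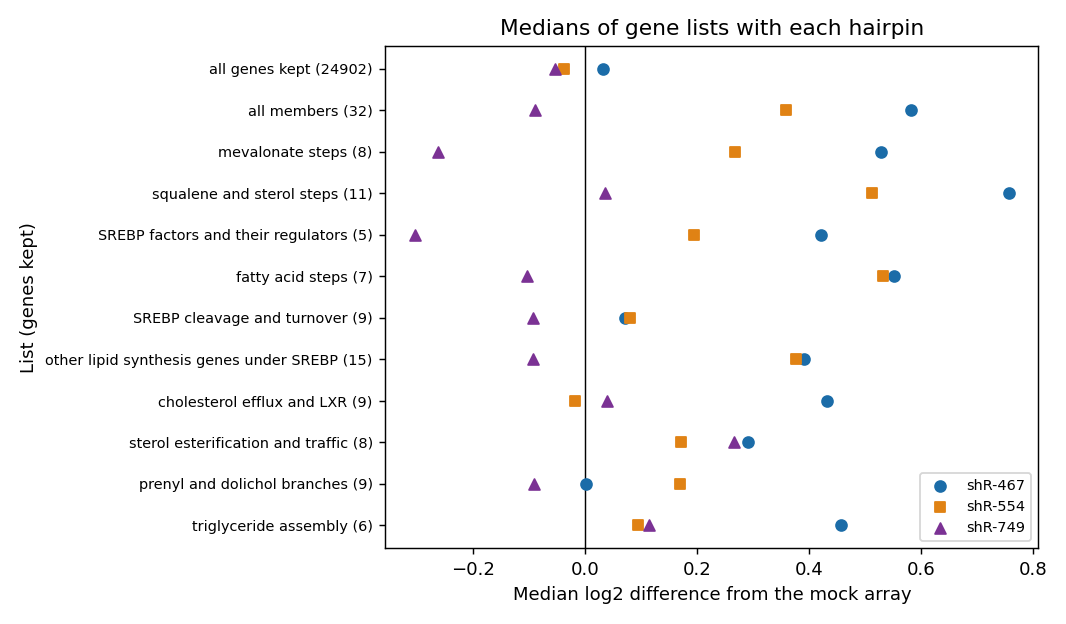
Median log2 difference from mock (horizontal) of all genes kept, the 32 lipid synthesis genes ("all members"), their role groups and the neighbouring pathway lists (vertical, number of genes in brackets), 1 point for each hairpin. The sterol transfer group (STARD4) is not drawn. The groups of the 32 genes that are drawn run from shR-467 down to shR-749, with squalene and sterol steps at 0.76, 0.51 and 0.04. Sterol esterification and traffic stands at 0.29, 0.17 and 0.27.

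With 3 hairpins against 1 mock array, limma called none of the 32 genes at an adjusted p under 0.05. Of all 24902 genes it called 0 at that threshold, and 377 (1.51%) had an unadjusted p under 0.05, none of them among the 32. For 23 of the 32 genes the SD over hairpins exceeded the size of the mean difference. The median over the 32 genes of the mean log2 difference was 0.29 with all hairpins. It was 0.14 without shR-467, 0.24 without shR-554 and 0.49 without shR-749, the hairpin already seen to be lowest. An exact permutation test of 1 array against 3 cannot give a p below 0.25.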

How the data were processed

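Total RNA of 4 Hep3B cultures was labelled with Cy3 and hybridised to Agilent 1-colour arrays on 1 slide, read in 1 scan. The authors deposited scanner output of Feature Extraction 10.7.1.1 (per the submitters' processing notes), in which each spot's intensity is already background-subtracted, and a table of processed log2 values, used here only as an alternative. The software's annotation uses hg19.

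From the deposited intensity, log2 was taken and each array's 75th percentile over the spots other than controls subtracted. Outlier spots were dropped, and replicate spots were averaged per probe. The filter on dim probes asked for a signal well above background with shR-MOCK or with each of the 3 other hairpins. A gene was read from its probe with the highest mean signal. Differences from mock were counted at 1.5-fold, the threshold of the study's methods, and tested by limma 3.58.1 (eBayes with trend, Benjamini-Hochberg over 24902 genes, 2 residual and 4.92 prior degrees of freedom). The fit takes the single mock array to have the spread of the knockdown arrays. The p-values measure only the spread between these arrays. Their number and the signal over background limit the precision: 67.6% to 73.6% of spots were well above background and none was saturated.

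The genes and lists were chosen with earlier results of these data known. Named were all 32 genes, UNC50 and, from other lists, genes measured well above background throughout that passed 1.5-fold the same way with every hairpin. Beyond this rule MBTPS1, MBTPS2, MOGAT2 and the markers other than FGB, TTR and APOA1 were named after their values were seen. Some genes were not analysed here. Symbols follow the array's design. Tested on simulated data with 200 of 24902 genes changed 4-fold, the steps put 196 past 1.5-fold and limma called 0 of the 200. A 4-fold change is larger than any seen in the 32 genes, and simulated unchanged genes past 1.5-fold were not counted. The simulation therefore does not measure how the 1.5-fold counts behave for smaller changes. Python 3.11.15, pandas 2.3.3 and R 4.3.3 were used.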

Additional observations from a re-analysis of the deposited data

Results flagged for a closer look

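LSS has a second, dimmer probe (A_23_P211252, hg19 chr21:47608567-47608626) that the report's counts do not use, and it was higher with every hairpin. It gave 233 for the mock array and 429 (shR-467), 781 (shR-554) and 443 (shR-749) for the others. The log2 differences were 1.07, 1.43 and 0.91, with a mean of 1.14 ± 0.27 (SD, n = 3), so all 3 hairpins passed 1.5-fold, including shR-749. The brighter LSS probe gave 1.00, 0.72 and 0.12. The probes lie at different places in the gene, and why they differ with shR-749 was not tested.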

How the results depend on the processing

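The alternatives gave 590 values, of which 580 were labelled the same, 10 moved and none reversed. All 456 values of single genes were labelled the same. A count was the same within a ratio of 1.5 to the main count, a limma count only if equal. A median or single gene value was the same if it moved less than its spread between hairpins or spots. Leaving out 1 of 3 hairpins cannot move a mean by its SD, so those single gene values could not be labelled moved. Only single gene values past 1.5-fold could be labelled reversed. In each scaling, background, filter and probe setting, shR-467 was above shR-749 for 30 of 32 genes and 0 of 32 were 1.5-fold higher with shR-749, while the genes 1.5-fold higher with shR-467 numbered 12 to 16. The genes changed 1.5-fold with shR-554 numbered 8 with median scaling in place of 5, and those with shR-749 numbered 1 after normexp in place of 2. At a 2-fold threshold 0 genes were higher on average in place of 3, and the single hairpins changed 3 (shR-467), 1 (shR-554) and 1 (shR-749). Leaving out 1 hairpin at a time, the genes higher on average numbered from 0 (without shR-467) to 10 (without shR-749), those changed the same way with every hairpin from 0 to 4, and those above mock with every hairpin from 11 to 28, the higher value each time without shR-749. The last count was added after seeing the data. limma called 0 of the 32 genes at an adjusted p under 0.05 in all settings, leaving out hairpins included. Of all genes it called 4 after normexp and 1 without shR-554. The methods' t-test called 0 genes after adjustment and 642 before it. No paired analysis was possible because the mock group holds 1 array. A block for slide or scan could not be fitted with 1 of each.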
